A study of Sus scrofa with 79 samples.

Results

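Matrix metalloproteinases and their tissue inhibitors were followed in the piglet intestine and blood through 6 genes, the metalloproteinases MMP1, MMP2, MMP3 and MMP9 and the inhibitors TIMP1 and TIMP2. The genes were chosen by name, as those of the family whose RefSeq accession on the array carried these symbols. No measured value entered that rule, though earlier results of these data were known when the genes were chosen. They were covered by 10 probes of 43603 on the array, and stood among 36787 gene names, of which 2389 had a symbol. MMP1, MMP3 and TIMP2 had 1 probe each, MMP2 and MMP9 had 2, and TIMP1 had 3. RNA of Sus scrofa was hybridised to 79 Cy3 arrays, each holding a pool of 4 animals, so that a value describes a pool and not an animal. T1 piglets served as controls and had neither injection nor procedure, apart from blood sampling at day 8. T2 piglets were given the antibiotic tulathromycin under the skin at 2.5 mg/kg on day 4 of life, and T3 piglets were given the same injection together with docking, clipping and weighing. Whole blood was taken at day 8, and jejunum and ileum at days 8, 55 and 176, with 3 or 4 pools in each of 21 groups. Up to day 8 the 3 treatments were kept together within the litters of TOPIGS20 sows, each of which supplied piglets to every treatment. The litters and housing of the animals of days 55 and 176 are not given in the sources used here.

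Matrix metalloproteinases are zinc-dependent proteases that cut the proteins of the extracellular matrix and are secreted as inactive precursors. MMP1 is a collagenase of fibrillar collagen, MMP2 and MMP9 are gelatinases that also cut basement membrane collagen, and MMP3 is a stromelysin of broad specificity that can activate other members. TIMP1 and TIMP2 bind the active enzymes and block them, and TIMP2 also takes part in the activation of the MMP2 precursor at the cell surface. In the gut the stroma makes most of MMP1, MMP2 and MMP3, whereas neutrophils store MMP9.

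The share of probes well above background ranged from 34.8% to 44.1% in blood and from 42.4% to 75.2% in the gut, and no array held a saturated spot. The lowest gut shares were 42.4% to 52.0% on the ileum T3 arrays of day 55 and 46.9% on 1 jejunal array of day 176, of T1 pool 9. All 10 probes of the 6 genes were well above background on all gut arrays, except that the second probe of MMP9 missed on 3 jejunal arrays. Each group lay on 1 slide, and gut arrays of different ages were scanned on different days, so age and scan day cannot be told apart. The epithelial marker FABP2, a fatty acid binding protein of enterocytes, was well above background on 0 of 12 blood arrays. The submitters' table of processed log2 values named its gut columns in another way. Its 34 blood and day 176 columns best matched the scanner array of the same label, by correlation over probes, whereas 0 of its 45 gut columns of days 8 and 55 did. Of these, 44 best matched an array of the same treatment and pool but of another tissue or age. Columns named ileum day 8 best matched the arrays labelled jejunum day 8, and those named ileum day 55 matched ileum day 8, with r from 0.897 to 0.986. Columns named jejunum day 8 best matched jejunum day 55, with r from 0.897 to 0.986 except for T2 pool 8. The best match of that column was T1 pool 12 of jejunum day 55, at 0.358. Columns named jejunum day 55 matched ileum day 55, with r from 0.498 to 0.935. The labels of the scanner files were used here. The sources used here do not settle which naming is right, so the tissue and age of every gut value of days 8 and 55 rest on these labels. At day 176, where both namings met, FABP2 differed between ileum and jejunum by -2.64 on the log2 scale and CD79A, of the B cell receptor, by 4.86. With the scanner labels the same differences were -2.04 and 3.92 at day 55 and -0.03 and -0.74 at day 8. With the names of the table they were 1.90 and -5.87 at day 55 and -0.11 and -1.21 at day 8.

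MMP1, MMP2 and MMP3 were above background in the gut and not in blood, and MMP9 and TIMP2 had their highest medians in blood. Levels are log2 signals after joint normalization of the 79 arrays, given as the lowest, the median and the highest pool. They order the conditions within a gene and do not compare genes. MMP1 read 13.92, 13.99 and 14.35 in ileum at day 8 and 13.49, 13.94 and 14.69 in jejunum at day 8. It then read 12.98, 13.38 and 14.49 in jejunum at day 176 and 12.59, 12.91 and 13.77 in jejunum at day 55. The lowest gut levels of MMP1 were 10.34, 11.56 and 13.71 in ileum at day 176 and 11.13, 11.55 and 12.18 in ileum at day 55. Each of these conditions overlapped its neighbour in the order, and the 2 day 8 tissues stood wholly above ileum at day 55. MMP2 had its highest median in jejunum at day 8, with 12.10, 12.53 and 12.88, followed by jejunum at day 176 with 11.66, 12.29 and 13.06. It read 11.66, 12.24 and 12.49 in ileum at day 8, 10.69, 11.43 and 11.70 in jejunum at day 55, 9.15, 10.72 and 11.42 in ileum at day 176, and 10.22, 10.69 and 11.31 in ileum at day 55. The first 3 of these conditions overlapped one another, and so did the last 3. MMP3 read 10.60, 10.78 and 12.53 in jejunum at day 8, above all pools of either segment at day 55, and had a median of 10.87 in ileum at day 8, where the lowest pool, at 8.71, fell among those of day 55. Its levels ran on to 8.57, 9.47 and 10.18 in jejunum at day 55, 8.08, 8.73 and 9.67 in ileum at day 55, 7.98, 8.63 and 9.01 in jejunum at day 176, and 7.13, 8.00 and 10.15 in ileum at day 176.

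The remaining genes were measured in blood as well. MMP9 read 10.30, 12.37 and 13.13 in blood, and its gut medians lay between 9.45 and 10.43 with single pools from 7.01 to 12.25. The pool at 7.01, in jejunum at day 176, read 2.73 on the dimmer MMP9 probe and 11.29 on the other. Gut conditions of MMP9 all overlapped one another. TIMP1 medians ranged from 9.52 in jejunum at day 176 to 10.76 in ileum at day 176, with blood between them at 10.20, and all neighbours in the order overlapped. TIMP2 read 10.31, 11.23 and 11.85 in blood, 9.71, 9.96 and 10.43 in jejunum at day 8 and 9.31, 9.63 and 9.95 in ileum at day 8. Its other 4 gut conditions had medians of 8.51 to 8.99 and overlapped one another.

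**Figure D1:**
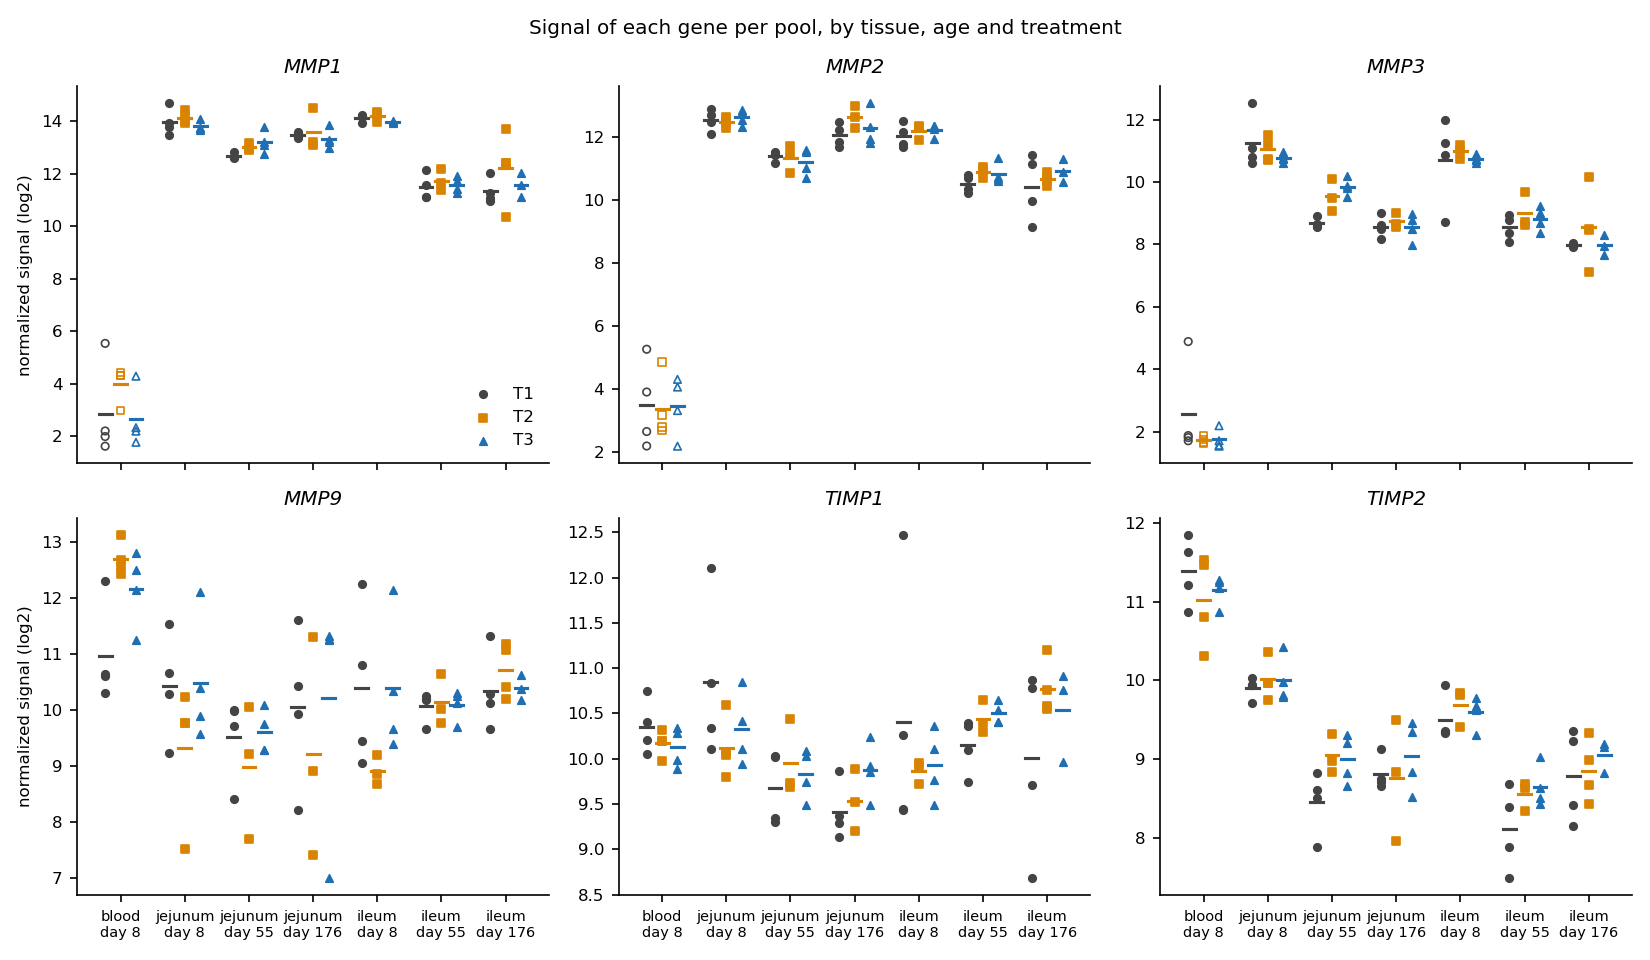
Log2 normalized signal of each gene (vertical axis, all 79 arrays normalized together) in each tissue and age (horizontal axis), with 1 point per pool, a bar at the group mean, treatments by colour and shape, and open symbols where no probe of the gene was well above background. MMP1, MMP2 and MMP3 had open symbols in all 12 blood pools, and MMP9 and TIMP2 had their highest median in blood.

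By the scanner labels most of the family fell in both gut segments between day 8 and day 55. Age differences are means over the 3 treatment groups from a limma fit of all 67 gut arrays, and a gene was called where the Benjamini-Hochberg adjusted p over all 30816 genes was under 0.05 and the fold over 1.5. In jejunum 5 of the 6 genes were called, all lower at day 55, where 37.1% of all genes were called and 18.9% called lower. The log2 difference, day 55 minus day 8, was -0.97 for MMP1 (SE 0.20, adjusted p = 4.78e-05), -1.20 for MMP2 (SE 0.17, adjusted p = 4.08e-08) and -1.67 for MMP3 (SE 0.24, adjusted p = 9.4e-08). The lowest day 8 pool of MMP2 and of MMP3 was above the highest day 55 pool, whereas the pools of MMP1 overlapped. It was -1.15 for TIMP2 (SE 0.16, adjusted p = 1.68e-08) with no overlap of pools, and -0.61 for TIMP1 (SE 0.23, adjusted p = 0.0278) with overlap. The 4 metalloproteinases had a median difference of -1.09 and the 2 inhibitors of -0.88, where that of all genes was 0.03. The TIMP1 call was lost without any of 8 single arrays, with adjusted p up to 0.0831, and under 6 of 11 other settings. Scaled to the 75th percentile of each array, MMP1 differed by -0.55 (adjusted p = 0.0318), under the fold limit, so that 3 of the 6 genes were called. MMP9 differed by -0.71 (95% interval -1.61 to 0.19, adjusted p = 0.193). With T1 arrays alone, a check chosen after the data were seen, the differences were -1.25 for MMP1, -1.12 for MMP2, -2.64 for MMP3, -1.51 for TIMP2 and -1.19 for TIMP1, the last with an adjusted p of 0.109.

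In ileum the fall of MMP1 was larger than in jejunum, and TIMP1 was not called. The difference of MMP1 was -2.41 (SE 0.20, adjusted p = 4.38e-15), a fold of 5.31, and all 11 ileal pools of day 55 lay below all 11 of day 8. The differences were -1.38 for MMP2 (adjusted p = 1.6e-09), -2.03 for MMP3 (adjusted p = 8.07e-10) and -1.16 for TIMP2 (adjusted p = 1.38e-08). Thus 4 of the 6 genes were called, all lower, where 47.3% of all genes were called and 23% called lower. MMP9 differed by 0.21 (95% interval -0.71 to 1.13) and TIMP1 by 0.30 (adjusted p = 0.294). The change since day 8 differed between ileum and jejunum by -1.44 for MMP1 (adjusted p = 5.25e-05) and by 0.91 for TIMP1 (adjusted p = 0.0278). These were 2 of the 6 genes, where 34.4% of all genes were called for that difference. At day 55, unlike day 8, the segments were scanned on different days, which cannot be told apart from that difference. With T1 arrays alone the TIMP1 difference was 0.93, with an adjusted p of 0.416.

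From day 55 to day 176 the members went separate ways. In jejunum MMP2 rose by 0.99 (SE 0.17, adjusted p = 5.94e-06) and MMP3 fell by a further 0.74 (SE 0.25, adjusted p = 0.0126). These were 2 of the 6 genes, where 36.9% of all genes were called. Neither was called with T1 arrays alone, where MMP2 differed by 0.62 and MMP3 by -0.12. In ileum MMP3 alone was called, where 28.3% of all genes were called. It fell by 0.63 (SE 0.25, adjusted p = 0.0416), and the call was lost when any of 13 single arrays was left out, with adjusted p up to 0.117. MMP2 in ileum differed by -0.08 (adjusted p = 0.749). The rise of MMP2 differed between the segments by -1.07 (adjusted p = 0.000675), where 30.6% of all genes were called. That difference cannot be told apart from the different scan days of the segments at day 55.

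Over the whole span from day 8 to day 176 MMP3 had the largest fall of the 6 genes in both segments. The difference was -2.41 (SE 0.24, adjusted p = 2.41e-12) in jejunum, a fold of 5.32, and -2.66 (SE 0.25, adjusted p = 2.03e-13) in ileum, a fold of 6.31. TIMP2 also fell, with -1.11 (adjusted p = 2.39e-08) in jejunum and -0.70 (adjusted p = 0.000192) in ileum, the latter not called with T1 arrays alone (-0.74, adjusted p = 0.0531). In ileum the differences were -2.31 for MMP1 (adjusted p = 1.7e-14) and -1.46 for MMP2 (adjusted p = 3.07e-10). In jejunum the difference of MMP1 was -0.48 (adjusted p = 0.0324), under the fold limit, and that of MMP2 was -0.22 (adjusted p = 0.277). TIMP1 fell by 0.83 (adjusted p = 0.00217) in jejunum and differed by 0.37 (adjusted p = 0.184) in ileum. In all, 3 of the 6 genes were called in jejunum, where 49% of all genes were called, and 4 in ileum, where 48.6% were. The change differed between the segments for 3 genes, by -1.82 for MMP1 (adjusted p = 1.65e-06), -1.24 for MMP2 (adjusted p = 9.7e-05) and 1.20 for TIMP1 (adjusted p = 0.00584), where 20.8% of all genes were called. The T1 arrays alone left the difference of MMP1, at -2.22 with an adjusted p of 0.0021, and not those of MMP2 and TIMP1, at -1.13 and 1.07.

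Probes of a gene differed in part. Both MMP2 probes gave the same calls in each age comparison. Of the 3 TIMP1 probes, the 2 dimmer fell in jejunum between day 8 and day 176, with adjusted p of 0.000525 and 9.87e-05 and differences down to -1.13, and the brightest differed by -0.36 (adjusted p = 0.18). The first MMP9 probe (A_72_P303264) rose by 1.08 in jejunum between days 55 and 176, whereas the second (A_72_P440951) differed by -0.24. Against day 8 those probes gave 0.72 and -1.30, the first called and the second not (adjusted p = 0.105).

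**Figure D2:**
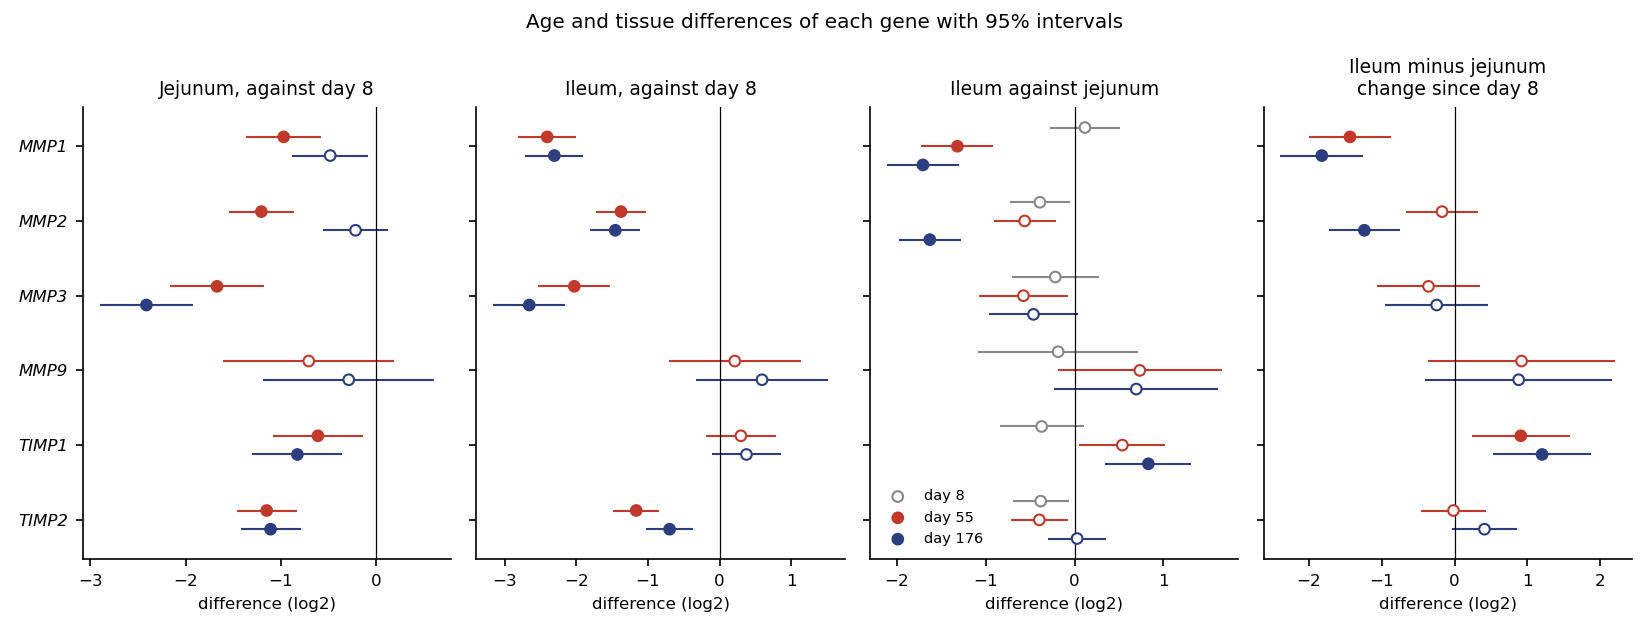
Log2 difference of each gene (horizontal axes, points with 95% intervals, filled where called) between ages in jejunum and in ileum, between ileum and jejunum at each age, and between the segments in the change since day 8. MMP1, MMP2, MMP3 and TIMP2 lay left of 0 and were called in ileum at both later ages, and MMP9 was not called in any panel.

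Between ileum and jejunum 0 of the 6 genes were called at day 8, 1 at day 55 and 3 at day 176. The shares of all genes called at those ages were 2.5%, 39.8% and 28.8%. At day 8, 0 of the 6 genes differed between ileum and jejunum, where 2.5% of all genes were called. The differences ran from -0.39 for MMP2 (adjusted p = 0.18) to 0.12 for MMP1 (adjusted p = 0.811), and at an unadjusted p under 0.05 20.3% of all genes passed, MMP2 and TIMP2 (-0.38) among them. At day 55 the difference of MMP1, ileum minus jejunum, was -1.32 (SE 0.20, adjusted p = 2.86e-07), with no overlap of pools, and was the single gene called, where 39.8% of all genes were. MMP2 differed by -0.56 (adjusted p = 0.00607) at a fold of 1.48, MMP3 by -0.58 (adjusted p = 0.0515) and TIMP1 by 0.54 (adjusted p = 0.058). With each array scaled to its 75th percentile, which moved the median of all genes by 0.46, MMP1, MMP2 and MMP3 were called, at -2.22, -1.33 and -1.08 relative to that median. At day 176 MMP1 and MMP2 were lower in ileum, with -1.71 (adjusted p = 9.32e-10) and -1.63 (adjusted p = 5.67e-11), and TIMP1 was higher, with 0.83 (adjusted p = 0.00468). These were 3 of the 6 genes, where 28.8% of all genes were called. Pools of MMP2 did not overlap at day 176, and those of MMP1 did so only through ileal T2 pool 6, at 14.26 in this fit. Pools of TIMP1 overlapped, with ileal T1 pool 11 the lowest of all at 9.29. TIMP1 differed by 0.60 with T1 arrays alone (adjusted p = 0.487). Ileal and jejunal arrays of day 55 were scanned on different days, which cannot be told apart from the segment there, and those of days 8 and 176 on the same day.

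Stromal markers, lymphocyte markers and the rest of the proteolytic system moved with age as well. In bulk tissue, fewer cells of a type and less RNA per cell cannot be told apart. Only list genes with a symbol on the array could be tested. Between days 8 and 55, 3 of 4 smooth muscle markers fell in jejunum and 4 of 4 in ileum, with medians of -1.61 and -1.46 where all genes had 0.03 and 0.11. DES, the muscle intermediate filament desmin, differed by -2.06 and -2.22. Their summed signal, as log2, ran from 14.19 to 15.13 in jejunum at day 8 and from 12.46 to 13.40 at day 55, and from 13.19 to 14.78 and 12.49 to 13.22 in ileum. At day 176 it ran from 12.32 to 14.03 in jejunum, where CNN1, a calponin of smooth muscle, had risen by 1.24 from day 55, and from 11.29 to 12.95 in ileum. All 4 endothelial markers fell in both segments, with medians of -1.54 and -1.92, among them CLDN5, a tight junction protein, with -2.29 in jejunum and -2.22 in ileum. Of 3 fibroblast markers, 2 fell in jejunum and 2 in ileum, including the matrix protein SPARC, with -1.65 and -0.84, while THY1 rose by 1.18 in ileum. Summed fibroblast signal ran from 13.23 to 14.10 in jejunum and from 12.58 to 13.73 in ileum at day 8, and from 12.16 to 13.06 and 11.96 to 12.87 at day 55. All 7 T cell markers rose in each segment, with medians of 2.05 and 2.42, and CD8A, a co-receptor of cytotoxic T cells, differed by 3.43 and 3.07. Of 5 monocyte and macrophage markers 3 rose and 0 fell in each segment, with medians of 1.37 and 1.65. Their summed signal ran from 11.89 to 16.75 in jejunum and from 14.97 to 16.34 in ileum at day 8, and from 16.46 to 17.54 and 15.84 to 16.56 at day 55. Of 5 neutrophil markers 1 rose and 0 fell in jejunum and 1 rose and 2 fell in ileum. Their summed signal ran from 11.31 to 12.53 in jejunum and from 11.29 to 12.69 in ileum at day 8, and from 12.87 to 13.60 and 12.57 to 13.34 at day 55. The part of these cell markers in the age differences of the 6 genes was not tested.

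Most genes tested in the list of activating proteases and related genes, which also names their inhibitors, and in that of matrix substrates fell as well. Of 11 activating proteases and related genes, 8 fell and 0 rose in jejunum between days 8 and 55, with a median difference of -0.83 against 0.03 over all genes, and 7 fell and 2 rose in ileum, with -1.03 against 0.11. HPX, the heme carrier hemopexin, differed by -5.07 and -5.36, and the lysosomal protease CTSB by -2.57 and -2.45. KLK1, a tissue kallikrein that releases kinins, rose by 3.63 in ileum. Of 9 matrix substrates, 7 fell and 0 rose in jejunum, with a median of -1.16, and 6 fell and 1 rose in ileum, with -0.90. COL5A1, a chain of type V collagen, differed by -1.27 and -1.61, and the secreted phosphoprotein SPP1, osteopontin, by -3.96 in jejunum. Of 25 inducing cytokines, growth factors and transcription factors, 4 rose and 3 fell in jejunum and 7 rose and 8 fell in ileum, with medians of 0.00 and 0.10. IFNG, interferon gamma, differed by 4.30 and 3.20, and TGFA, a ligand of the EGF receptor, by -2.55 and -3.98.

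Of 33 other metalloproteinases, disintegrin proteases and inhibitors listed, 7 were on the array with a symbol and 6 were tested in the gut. MMP20, an enzyme known from tooth enamel, was well above background on all 12 jejunal and 11 ileal arrays of day 8, on 2 of 11 arrays of either segment at day 55, and on 0 of 11 jejunal and 6 of 11 ileal arrays at day 176. Its signal at day 8 was at least 136-fold higher in jejunum than in jejunum at day 176. Such a lower limit sets the bright group's mean against the lowest signal called well above background on each dim array, or the probe's own where higher. The macrophage elastase MMP12 rose by 5.01 in ileum between days 8 and 55 and by 1.32 in jejunum, and stood higher in ileum than in jejunum by 3.83 at day 55 and 3.68 at day 176. ADAM10, a sheddase, fell by 0.72 in jejunum. Between ileum and jejunum at day 176, 14 of 25 inducing genes were higher in ileum and 1 lower, with a median of 0.79 against -0.07 over all genes, among them the cytokines IL6 by 3.36 and IL10 by 2.08. IL17A was also called higher, at 2.93, but was well above background on 10 of 11 ileal and 0 of 11 jejunal arrays. The size of the IL17A difference therefore rests on jejunal values below background. Of 5 neutrophil markers 3 were higher there, including S100A8, a subunit of calprotectin, by 2.61. Summed neutrophil signal overlapped, from 13.62 to 14.43 in ileum and from 13.46 to 14.74 in jejunum at day 176. Of 4 smooth muscle markers 2 were lower in ileum, CNN1 with -1.48.

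In blood MMP1, MMP2 and MMP3 were well above background on 0 of 12 arrays, whereas MMP9 and TIMP2 were higher than in the gut. As rounded lower limits after quantile normalization, MMP1 was at least about 160-fold higher in jejunum and 174-fold higher in ileum than in blood at day 8. Those limits are 7.32 and 7.44 on the log2 scale. A limma fit of the 35 arrays of that day gave adjusted p of 6.16e-24 and 9.88e-24. It used blood values below background, so these p-values do not test the limits. Under 9 other settings the measured difference of MMP1, blood minus gut, was as small as -7.27 against jejunum and -7.44 against ileum. That of MMP2 was as small as -5.56 and -5.21. The limits for MMP2 were 52.0-fold and 62.2-fold by probe in jejunum and 37.0-fold and 48.8-fold in ileum, and those for MMP3 were 19.5-fold and 16.7-fold. MMP14, the membrane-bound activator of the MMP2 precursor, was also well above background on 0 of 12 blood arrays, and was at least 35.2-fold higher in jejunum. The log2 difference of MMP9, blood minus gut, was 1.91 against jejunum (SE 0.39, adjusted p = 6.72e-05) and 2.08 against ileum (SE 0.40, adjusted p = 3.17e-05). Both MMP9 probes were higher in blood, by 2.35 and 1.47 against jejunum. TIMP2 was higher by 1.23 (adjusted p = 3.62e-09) and 1.61 (adjusted p = 2.17e-11), and TIMP1 differed by -0.21 (adjusted p = 0.447) and 0.15 (adjusted p = 0.591). Of the 6 genes 5 were called in each comparison, where 75.6% of all genes were called against jejunum and 74% against ileum. Scaling to the 75th percentile moved the median of all genes by 1.27 and 1.43 between blood and the segments. Relative to those medians MMP9 was higher in blood by 0.79 and 0.75, whereas TIMP2 stood at -0.08 against jejunum and 0.11 against ileum, its own differences under that scaling being 1.19 and 1.54. All 5 neutrophil markers were higher in blood, S100A9, a subunit of calprotectin, by 8.67 against jejunum, and their summed signal ran from 14.93 to 16.19 in blood, from 9.92 to 11.15 in jejunum and from 9.91 to 11.33 in ileum. All 6 epithelial markers were lower. The part of these cells in the MMP9 difference was not tested. Blood arrays were scanned on another day than the gut arrays of day 8, which cannot be told apart from the tissue.

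The question of the study was how early antibiotic and handling changed the gut and its immune system, and for these 6 genes the treatments gave 1 call in 21 comparisons. That call was MMP3 between T3 and T1 in the arrays labelled jejunum day 55. The submitters' table named the best matching columns jejunum day 8, so the call rests on the scanner label of day 55. In the fit of the 22 arrays of that age, T1 pools read 9.30, 9.37, 9.60 and 9.27. T2 pools read 10.81, 10.20 and 9.79, and T3 pools read 10.55, 10.62, 10.26 and 10.94. All T2 and T3 pools lay above all T1 pools, and T2 and T3 overlapped. The log2 difference of MMP3, T3 minus T1, was 1.21 (SE 0.27, adjusted p = 0.00571), a fold of 2.31, where 12.2% of all genes were called and 6.85% called higher. T2 differed from T1 by 0.88 (SE 0.30, adjusted p = 0.121), where 3.32% of all genes were called, and T3 from T2 by 0.33 (adjusted p = 0.759). T3 and T1 of that segment lay on different slides and cannot be told apart from them, whereas T2 and T1 shared a slide. The T3 call held when each of the 22 arrays was left out in turn, with differences of 1.09 to 1.32 and adjusted p up to 0.0214, and under the 10 other settings, with adjusted p up to 0.0152.

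In ileum at day 55 T3 differed from T1 by 0.28 for MMP3 (adjusted p = 0.523). The T3 arrays there lay on another slide than those of T1 and T2, and had 42.4% to 52.0% of probes well above background where T1 and T2 had 62.6% to 73.1%. Treatment cannot be told apart from slide in the ileal T3 values of that age. The T3 effect differed between the segments by -0.92, which did not pass (adjusted p = 0.162), where 5.96% of all genes were called. TIMP2 in jejunum at day 55 read 8.56, 9.21, 9.53 and 9.31 in T1, 10.04, 9.69 and 9.55 in T2 and 10.02, 9.37, 9.93 and 9.55 in T3. T2 pools lay above T1 pools, T3 overlapped T1, and neither difference passed, at 0.61 (adjusted p = 0.286) and 0.57 (adjusted p = 0.157). MMP1 differed there by 0.33 in T2 and 0.52 in T3, also without a call, and its T2 pools lay above its T1 pools. Over all treatment comparisons 7 differences had an unadjusted p under 0.05 without a call. These were MMP3 and TIMP2 in T2 and MMP1 and TIMP2 in T3 of jejunum at day 55, TIMP2 in T3 of ileum at day 55, at 0.56, and MMP9 in T2 and T3 in blood, all against T1. At that limit 15.6% of all genes passed in T2 of jejunum, 26.9% in T3 of jejunum and 30% in T3 of ileum at day 55, each against T1.

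Other genes of the pathway moved between T3 and T1 in jejunum at day 55. Of 11 activating proteases and related genes 3 were higher and 0 lower, CTSD, a lysosomal aspartic protease, by 1.73, PLAU, the urokinase that makes plasmin, by 1.28 and CTSB by 1.09. Their median was 0.28 against -0.05 over all genes. Of 24 inducing genes 5 were higher and 0 lower, including RELA, a subunit of NF-kappaB, by 2.07, TGFA by 2.06 and FOS, a subunit of AP-1, by 1.36. Of 9 matrix substrates COL5A1 was higher by 1.03 and FBN1, fibrillin, by 0.94, and of the 6 other metalloproteinases and inhibitors 0 were called. Among cell markers 5 of 8 of T cells, 2 of 4 of endothelium and 2 of 6 of epithelium were higher, 2 of 4 of smooth muscle were higher and 1 lower, and 0 of 3 of fibroblasts were called. Their part in the MMP3 difference was not tested.

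**Figure D3:**
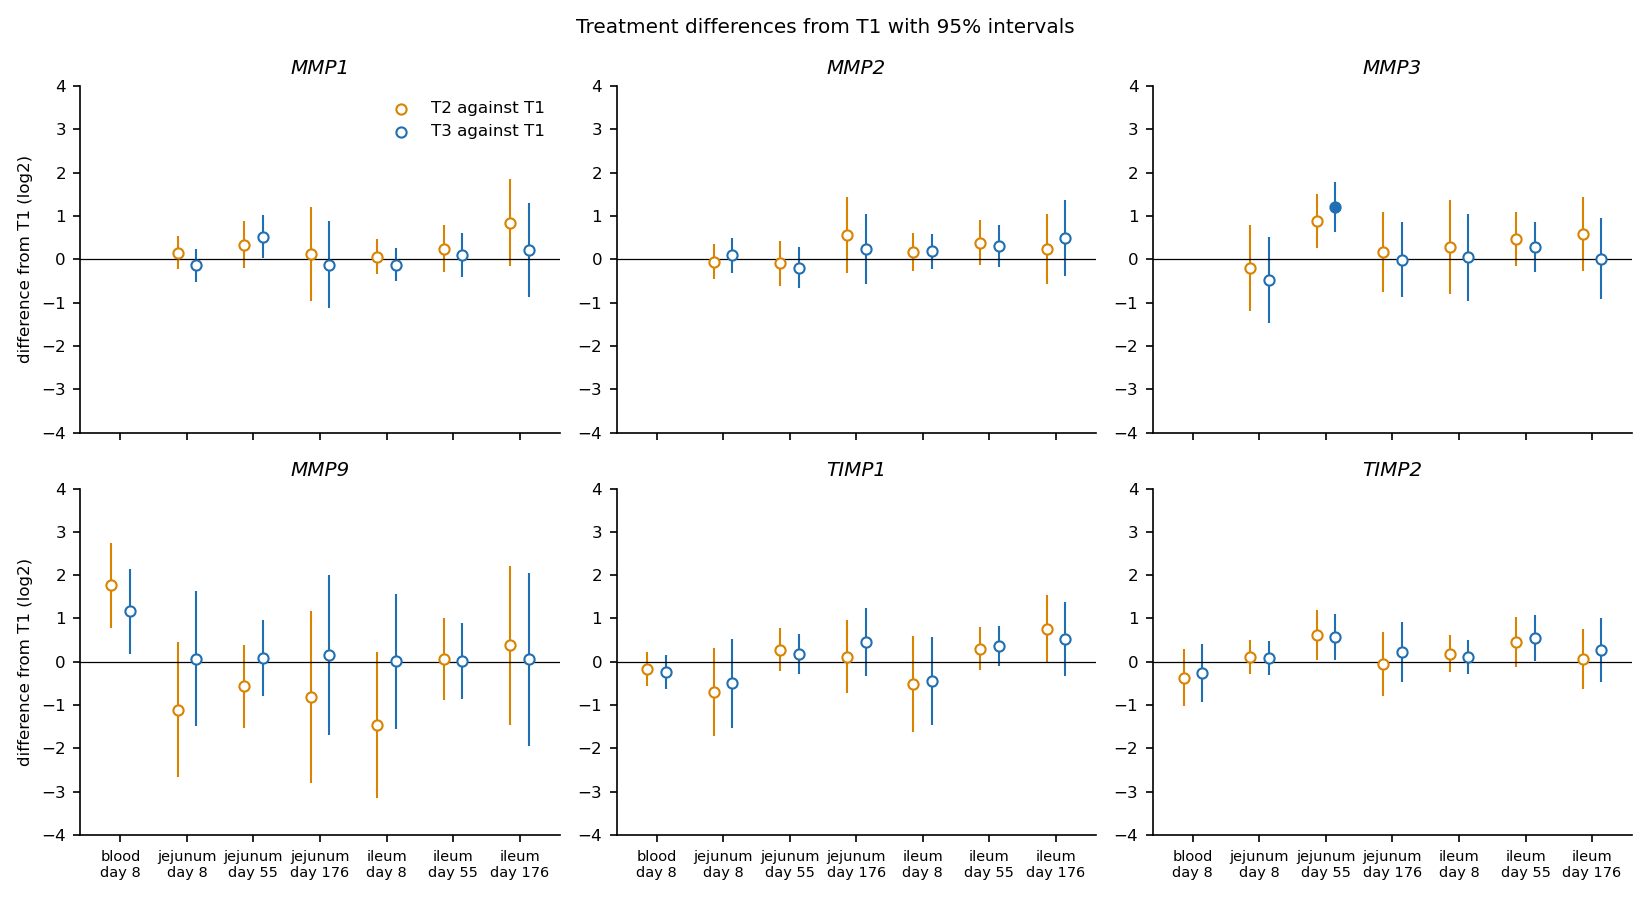
Log2 difference of T2 and of T3 from T1 for each gene (vertical axes, points with 95% intervals, filled where called) in each tissue and age (horizontal axes), each from the fit of its own age or of blood, without values for genes not read in blood. MMP3 in jejunum at day 55 in T3, at 1.21, was the single filled point.

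By the scanner labels no member was called between treatments at day 8, at day 176 or in blood. At day 8 T2 against T1 called 0.0212% of all genes in jejunum and 0.418% in ileum, T3 against T1 called 0% and 1.07%, and T3 against T2 called 0% and 0.0283%. At an unadjusted p under 0.05 these comparisons passed 7.16%, 19%, 3.41%, 25%, 3.89% and 8.99% of genes. The widest differences at that age were those of MMP9. In jejunum MMP9 read 11.31, 10.95, 12.19 and 9.89 in T1, 10.43, 10.90, 10.43 and 8.15 in T2 and 10.23, 11.07, 10.57 and 12.74 in T3. In ileum it read 11.46, 10.12, 12.85 and 9.71 in T1, 9.35, 9.53 and 9.87 in T2 and 10.05, 11.02, 10.34 and 12.78 in T3. The ileal T2 pools lay below all T3 pools, and the other groups overlapped. That gap was of the second MMP9 probe, where T3 exceeded T2 by 2.40. The first probe differed by 0.53. Its pools overlapped, with 10.19 to 10.75 in T2 and 9.98 to 12.71 in T3 after joint normalization. T1 in jejunum and T3 in ileum lay on another slide than the other treatments, so their differences cannot be told apart from slide. T2 differed from T1 by -1.11 in jejunum (95% interval -2.67 to 0.46, adjusted p = 0.869) and by -1.45 in ileum (95% interval -3.14 to 0.24, adjusted p = 0.333). Without T2 pool 8, at 8.15, the jejunal difference was -0.50. The paper took a jejunal sample out in its quality control without naming it, whereas all 12 jejunal arrays were kept here. T3 differed from T1 by 0.07 (95% interval -1.49 to 1.63) and 0.01 (95% interval -1.55 to 1.57), and both turned sign when single pools were left out. The first and the second probe had opposite signs there, at -0.40 and 0.54 in jejunum and -0.57 and 0.59 in ileum. At day 176 MMP9 in jejunum ran from 7.50 to 12.04 over 11 pools, and differences between treatments had intervals from -2.81 to 2.96. The second probe was well above background there on 3 of 4 T3 arrays and 2 of 3 T2 arrays. After joint normalization it ran from 2.73 to 10.83, and the first probe from 9.34 to 12.38. Called shares at day 176 were 1.59%, 0% and 1.16% of all genes in jejunum and 0.0106%, 0.00354% and 0% in ileum, for T2 against T1, T3 against T1 and T3 against T2. In ileum at day 55 they were 0.08%, 14.8% and 8.26% and in jejunum, for T3 against T2, 0.86%, again with 0 of the 6 genes.

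The widest treatment differences in blood were those of MMP9, carried by 1 of its 2 probes and not called. The mean of its probes read 7.04, 7.31, 7.40 and 8.97 in T1, 9.43, 9.11, 9.96 and 9.26 in T2 and 7.87, 9.55, 9.19 and 8.76 in T3, in the fit of the 12 blood arrays. All T2 pools lay above all T1 pools, and T3 overlapped T1. T2 differed from T1 by 1.76 (SE 0.45, adjusted p = 0.193) and T3 from T1 by 1.16 (SE 0.45, adjusted p = 0.592), where 0.00694% and 0.00347% of all genes were called and 10.7% and 7.04% had an unadjusted p under 0.05. T2 and T3 shared a slide and T1 lay on another, so both differences cannot be told apart from slide. The first probe read 10.09, 9.89, 10.31 and 9.79 in T1 and 10.09, 9.61, 10.74 and 9.97 in T2, and differed by 0.08. The second probe read 3.99, 4.74, 4.48 and 8.14 in T1, 8.77, 8.60, 9.19 and 8.55 in T2 and 6.35, 8.60, 8.26 and 8.07 in T3, and differed by 3.44 (adjusted p = 0.177) between T2 and T1. Both probes were well above background on all 12 arrays. The T1 pool numbered 12 stood with the treated pools on the second probe, and without it the T2 difference of MMP9 was 2.19 with an adjusted p of 0.00922. Leaving out each of the 12 arrays in turn gave no other call, with differences from 1.55 to 2.19 and adjusted p up to 0.381. Summed neutrophil signal ran from 14.93 to 15.71 in T1, from 15.45 to 16.03 in T2 and from 15.06 to 16.19 in T3, and its part was not tested. TIMP1 differed between T2 and T1 in blood by -0.17 (adjusted p = 0.754) and TIMP2 by -0.37 (adjusted p = 0.679).

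At day 8 both gut segments of a pool came from the same animals, and pools high for MMP9 in jejunum were high in ileum. Over 11 pools MMP9 in jejunum and ileum correlated with Pearson's r of 0.909 (permutation p = 0.00043) and Spearman's rho of 0.818 (permutation p = 0.00309). Among 18 relations, of 6 genes at 3 ages, the adjusted values were 0.00774 and 0.0556. Pools 4 of T3 and 11 of T1 were high in both segments, with 12.71 and 12.15 in jejunum and 12.75 and 12.84 in ileum. Without those pools r was 0.671 over 9 pools, so the relation rests in part on them. The 11 pools hold 3 treatments, with 3 or 4 pools in each, too few for a value within a treatment. TIMP1 gave an r of 0.875 (permutation p = 0.01, adjusted 0.0901), which fell to 0.167 without pools 12 of T1 and 1 of T3. Pool 12 was the highest of day 8 in both segments for TIMP1, at 12.70 and 13.03, and for MMP3, at 13.12 and 12.61. At days 55 and 176 r of MMP9 was 0.381 and 0.0453 over 11 and 10 pools.

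**Figure D4:**
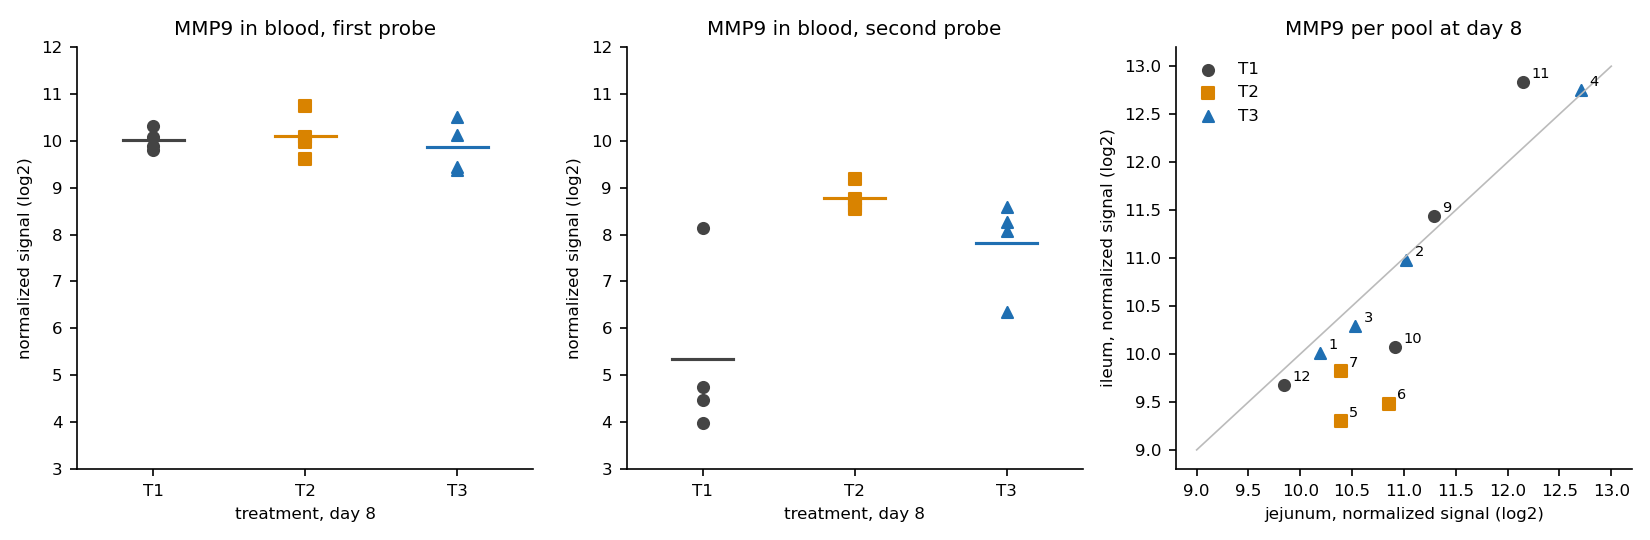
Log2 normalized signal of the first and the second MMP9 probe in blood at day 8 by treatment (points are pools, bars are group means), and the mean of both probes in ileum against jejunum per pool at day 8, numbered by pool, with a grey line where the segments are equal. The second probe of 3 T1 pools lay between 3.99 and 4.74, below all T2 and T3 pools, and pools 4 and 11 were the highest in both segments.

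Across the 18 gut groups some members ran together. As a description over group means that share arrays and age, MMP1 and MMP2 correlated with r of 0.915, MMP3 and TIMP2 with 0.849, MMP1 and MMP3 with 0.800, and MMP9 and TIMP1 with 0.596. MMP1 and MMP9 stood at -0.299. Among 2227 genes with a symbol, those most like MMP1 were CTSV, CYB5A and CRAT, with r from 0.964 to 0.975. Those most like MMP2 were the smooth muscle genes CNN1 and PPP1R14A and the LIM domain gene FHL1, from 0.950 to 0.960. MMP3 was nearest to EIF4E2, PON2 and GUCY1A3, from 0.974 to 0.979, and TIMP2 to UNC5B, ACADS and POFUT1, from 0.944 to 0.952. MMP9 and TIMP1 had looser neighbours, PAEP, IGFBP6 and DPEP1 at 0.801 to 0.821 and GDF15, MADCAM1 and BDKRB1 at 0.781 to 0.797.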

How the data were processed

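The authors scanned 1-colour pig arrays with Agilent Feature Extraction 10.7.3.1 and deposited background-corrected signal intensity per spot, used here, and a table of processed log2 values, used only to compare sample names. Signals under 1 were set to 1, taken as log2 and quantile normalized over the arrays of a fit. Probes at or over the 20th percentile on all arrays of at least 1 group were kept, without control spots, and averaged per gene. Each of 6 fits (gut at each age, blood, all gut, all day 8) used limma 3.58.1 with R 4.3.3, with Benjamini-Hochberg adjustment over all its genes. Differences come from these fits and need not equal differences between the jointly normalized levels. For normexp the median foreground signal was used.

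RefSeq named the probes through their accessions. The members, lists and tests were chosen with earlier results of these data known. Other named genes are the 3 most correlated with each member and, per list, up to 3 called genes of largest change; CD79A, FABP2, THY1, MMP14, MMP20 and further list genes given in the 2 segments or comparisons side by side were added after their values were seen. Replicates are pools, so p-values measure the spread between pools, and the number of arrays limits precision. Pools of the same sow set were deviating together only in part (mean r of 0.087 at day 8 and 0.143 in blood). Alternatives covered scaling, background, filter, probe choice, test, blocks and single arrays. Genome positions and sequences were not used here.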

Additional observations from a re-analysis of the deposited data

Results flagged for a closer look

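Single pools stood apart from the rest of their group in 8 of 93 groups of 4 pools, where chance gives about 1 in 20. In jejunum at day 176, MMP9 read 7.46 in T3 pool 4 while the others read 11.86 to 11.95. That gap was of the second probe, which fell to 2.73 in this pool after joint normalization. The first probe ran from 11.29 to 12.08 over the T3 pools. In ileum at day 55, MMP9 read 10.29 in T1 pool 9, below the others at 10.80 to 10.88. TIMP2 read 10.57 in T1 pool 12 of ileum at day 8, above the others at 9.96 to 9.99. MMP1 read 14.46 in T3 pool 2 of ileum at day 8, where the others read 14.52 to 14.53, and 13.42 in T1 pool 12 of jejunum at day 55, where they read 13.18 to 13.21. In blood, where neither gene was above background, MMP1 read 2.25 in T1 pool 12 and 1.27 in T2 pool 6, and MMP2 read 2.02 in T2 pool 6.

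Age changes of MMP1, MMP2 and TIMP1 differed between ileum and jejunum by a limma test of the difference, on the log2 scale. MMP1 gave -1.44 from day 8 to 55 and -1.82 from day 8 to 176. MMP2 gave -1.07 from day 55 to 176 and -1.24 from day 8 to 176. TIMP1 gave 0.91 from day 8 to 55 and 1.20 from day 8 to 176. Where day 55 enters, the difference cannot be told apart from the different scan days of the segments at that age.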

How the results depend on the processing

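Of the counts of called genes under other settings, 428 stayed within 1.5 times the reported count and 17 did not. The exceptions were 1 (reported 0) for T3 against T1 in ileum at day 55 with normexp, 2 (reported 0) for T2 against T1 in jejunum at day 55 with a 2-way analysis of variance, 3 (reported 5) for jejunum day 55 against 8 at 75th percentile scaling, and, for ileum against jejunum at day 55 (reported 1), 3 with no fold limit or 75th percentile scaling and 2 with the brightest probe or without the ileum T3 arrays of day 55. For ileum day 176 against 55 (reported 1) the count was 2 with no fold limit and 0 with normexp, without those T3 arrays or with T1 arrays alone. The ileum minus jejunum counts (reported 2, 1 and 3 for days 55 against 8, 176 against 55 and 176 against 8) were 1 at 75th percentile scaling or without those T3 arrays for the first, and 1, 0 and 1 with T1 arrays alone; jejunum day 176 against 55 (reported 2) gave 1 there. Leaving out single arrays gave 0 to 1 for T2 against T1 in blood, for ileum against jejunum at day 8 (TIMP1, without ileum T1 pool 12) and for ileum day 176 against 55, 1 to 3 for ileum against jejunum at day 55, and 1 to 2 for the first ileum minus jejunum count. Sign changes were followed for the called differences and for MMP9, and those found were of MMP9 in comparisons not called as reported: T3 against T1 at day 8 gave -0.14 in ileum at 75th percentile scaling, -0.57 and -0.40 in ileum and jejunum with the brightest probe, -0.16 in blood with it, and, leaving out single pools, ranges of -0.57 to 0.61 in ileum and -0.46 to 0.44 in jejunum; jejunum day 176 against 8 gave 0.72 with the brightest probe and a range of -0.65 to 0.082 leaving out single pools; ileum day 55 against 8 gave -0.12 with the brightest probe and -0.31 with T1 arrays alone, and day 176 against 8 -0.054 with these. The cause was not tested.

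With the replicate block of sow sets, TIMP1 in jejunum at day 55 against 8 was -0.57 (adjusted p = 0.0246) at a fold under 1.5; neither that block nor a block of pools changed another call. TIMP1 there was also not called at 75th percentile scaling, with normexp or with the brightest probe. The slide as a random block could not be fitted, since 0 groups lay on more than 1 slide. Sets without the ileum T3 arrays of day 55 or with T1 arrays alone were chosen after seeing the data. Depth of signal limits MMP1, MMP2 and MMP3 in blood to bounds, and MMP9 in jejunum rests on 2 probes that disagree.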

Other observations

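Between days 8 and 176 the related lists kept the direction they had at day 55 in part. In jejunum 7 of 11 activating proteases and related genes fell and 1 rose, with a median of -0.81 against 0.13 over all genes, and 7 of 9 matrix substrates fell, with a median of -1.30. In ileum 6 of 11 fell and 1 rose, with -1.09 against 0.07, and 6 of 9 substrates fell and 1 rose, with -1.26. Over that span 49% of all genes were called in jejunum and 48.6% in ileum, in either direction. HPX differed by -5.33 and -5.81 and COL5A1 by -1.76 and -1.94. The inducing genes went 2 higher and 13 lower of 25 in jejunum, with a median of -0.87, and 11 higher and 6 lower in ileum, with 0.15. ADAM17, a sheddase, differed by -1.07 in jejunum, and MMP12 by 4.65 in ileum.

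From day 55 to 176 smooth muscle markers and inducing genes of jejunum went opposite ways. Of 4 smooth muscle markers 3 rose, CNN1 by 1.24, DES by 1.03 and MYLK, the myosin light chain kinase, by 0.70, whereas 13 of 25 inducing genes fell and 0 rose, with a median of -0.61 against 0.01 over all genes. Of 3 fibroblast markers 2 fell and 0 rose, and 0 of 4 endothelial markers were called. In ileum 5 of 5 neutrophil markers rose over the same span, with a median of 2.64. Of all genes, 36.9% were called over that span in jejunum and 28.3% in ileum, in either direction.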
